A study of Mus musculus with 28 samples.

Results

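Cells that renew themselves were set against cells that have begun to commit. The self-renewing side held the sorted marrow fraction in which haematopoietic stem cells are enriched (HSC, 5 arrays) and the leukaemic cells that carry granulocyte-macrophage progenitor markers (L-GMP, 6 arrays). The committed side held normal common myeloid progenitors (CMP, 4 arrays), progenitors of granulocytes and macrophages (GMP, 4 arrays) and those of megakaryocytes and erythroid cells (MEP, 3 arrays). These 22 of the 28 mouse bone marrow arrays of the study entered 1 fit, in which each sort of a side carried equal weight. Of 8422 genes tested, 916 had group means in both HSC and L-GMP above all 3 committed sorts (10.9%) and 1243 had both below all 3 (14.8%). These 2159 genes (25.6%) are the ones described here, and being on a side is how they were chosen, not a result.

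Stem cells and leukaemia stem cells share the ability to divide without losing the ability to divide again, while progenitors of normal marrow pass through a limited number of divisions and mature. In normal marrow the HOX transcription factors of the HoxA cluster are most active in stem cells and are switched off as cells mature. MLL fusion proteins such as MLL-AF9 keep that cluster active in leukaemia. Committed progenitors, by contrast, are known for rapid growth, which needs the making of ribosomes, nucleotides and mitochondrial enzymes.

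By their labels, HSC were lineage-negative, Sca-positive and Kit-positive, a gate that also admits multipotent progenitors. CMP, GMP and MEP were lineage-negative, Sca-negative and Kit-positive. CMP were labelled Fc receptor-positive with low CD34, GMP Fc receptor-positive with high CD34, and MEP negative for both. L-GMP were labelled as sorted leukaemic cells with the GMP markers (Sca-negative, Kit, Fc receptor and CD34 positive). The series title names MLL-AF9, but the labels of the L-GMP samples give no construct, strain, age or animal, and no label tells whether replicates came from different animals, so p-values measure the spread between these samples, which may be technical. Each sample held about 10000 cells.

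The deposited values are array signals, given here as log2 levels after scaling, and a level of 5.27 is the floor below which values have no order. Array medians lay between 90.8 and 116 before scaling, and arrays of a group correlated with r from 0.937 to 0.984 across genes. The sort labels were checked against marker genes fixed for each type. The summed linear signal of 4 MEP markers was 6360 to 9430 in MEP arrays and 188 to 239 in HSC arrays, where the floor of such a sum is 155. In L-GMP the sum of 5 granulocyte progenitor markers reached 18100 to 27400, against 31200 to 35900 in GMP. The sum of 4 HSC markers was 2770 to 3000 in HSC and 157 to 218 in L-GMP, where Procr, a stem cell surface marker, was at the floor. In HSC this sum was carried by Hlf (mean level 11.08) and Procr (9.21), so the check rests on these genes. Of the other markers, Slamf1 was lower in HSC (6.31) than in CMP (6.73) and MEP, though above GMP and L-GMP. Mecom was near the floor in all sorts, at 5.82 in both HSC and L-GMP. Fcgr3, an Fc receptor gene, was at the floor on 2 of 4 CMP arrays although that sort was labelled Fc receptor-positive, and Ly6a, the gene for Sca-1, was not tested. Macrophage markers summed to 2770 to 3500 in L-GMP and to at most 1370 in any other sort, and eosinophil and mast cell markers to 3430 to 5590 in L-GMP and 1360 to 3630 in GMP. The part of such cells in the results was not tested. In bulk RNA, a change in the number of cells of a type and a change in RNA per cell cannot be told apart.

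HSC and L-GMP together differed from the committed average in 3439 of 8422 genes (40.8%), 1614 higher (19.2%) and 1825 lower (21.7%), by limma at an adjusted p under 0.05. Without scaling of the arrays the share of calls that were higher moved from 46.9% to 58.9%, and the median of all genes moved from 0.00101 to 0.0556. An average can be high because 1 side of it is very high. Of the 1614 higher calls, 610 (37.8%) were genes with both HSC and L-GMP above all 3 committed sorts, and of the 1825 lower calls, 983 (53.9%) were genes with both below. Taken alone, HSC differed from the committed average in 3153 genes (37.4%), L-GMP in 3998 genes (47.5%), and HSC from L-GMP in 3976 genes (47.2%).

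A stricter test asked whether HSC and L-GMP each differed from each committed sort. It took the largest of the 6 pairwise limma p-values, required 1 sign in all 6 pairs, and adjusted over all genes. It called 24 genes (0.285%), 14 above all 3 sorts (0.166%) and 10 below (0.119%), and on all 24 the 11 self-renewing arrays did not overlap the 11 committed arrays. Of the 24, 7 had to differ, because they passed the filter on low values through 1 side alone: Hoxa10, Hoxa3, Cdkn1c, Entpd1, Tinagl1 and Cmtm8 through self-renewing arrays and Slc24a3 through committed ones. The other 17 passed through arrays of both sides. Without scaling the count was 13, with 10 above and 3 below, and Cad, Mrpl16, Ppp1r14b, Timm8a1, Sfxn1 and Fh1 were among the calls lost. Such separation of all arrays was found in 120 genes (1.42%), 43 above (0.511%) and 77 below (0.914%). CMP was often the limit: HSC and CMP differed in 1132 genes (13.4%), against 3469 for HSC and GMP (41.2%) and 2772 for HSC and MEP (32.9%). L-GMP differed from GMP in 2825 genes (33.5%), from CMP in 3357 (39.9%) and from MEP in 3803 (45.2%). By group means, the nearest pair included CMP in 229 and 228 of the 916 genes above (HSC and L-GMP respectively), and in 355 and 332 of the 1243 genes below. The margin, which is the smallest of the 6 differences, had a median of 0.09 on the log2 scale above and 0.12 below, so most of these genes lie close to a committed sort. It reached 1 in 7 genes above and 3 below. Leaving out HSC replicate 2 or CMP replicate 4 lowered the count of 24 to 11, leaving out CMP replicate 2 to 12 and CMP replicate 1 to 15. Hoxa10, Itgb5, Endod1 and Adk were called whichever of the 22 arrays was left out and under all 14 other settings. Mylk, Hoxa3, Ebi3 and Tinagl1 were called whichever array was left out but in only 13, 13, 12 and 12 of those settings. With the replicate number as a block, 13 of the 24 genes lost the call, among them Ebi3, Tinagl1, Lst1, Cad and Fh1.

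**Figure D1:**
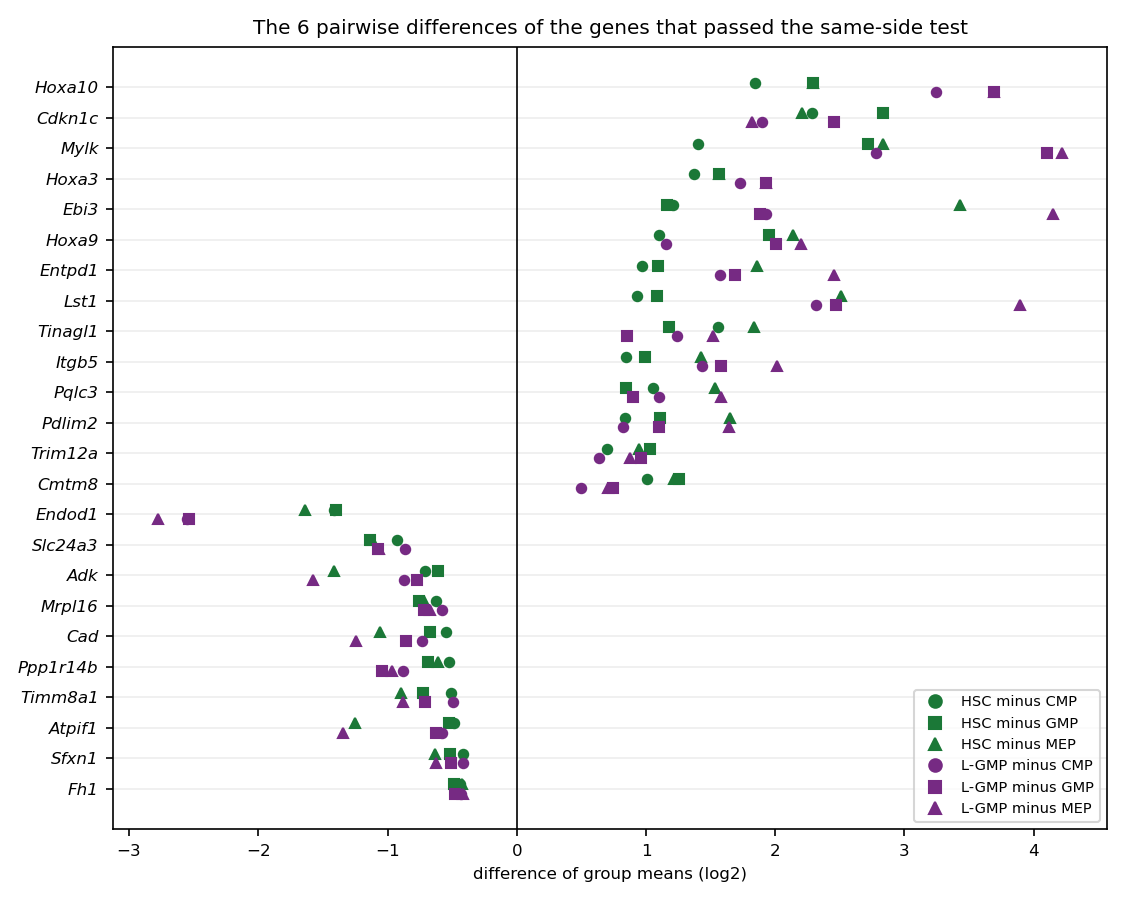
Difference of group means on the log2 scale (x axis) for each of the 24 genes called by the same-side test (y axis), with HSC in green and L-GMP in purple, and a symbol for each committed sort. All 6 points of a gene lie on 1 side of 0, from a smallest difference of 0.41 for Fh1 to 1.84 for Hoxa10.

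Among the gene lists, the HoxA cluster had the highest share of members above all 3 committed sorts. Of 6 cluster genes tested, 5 were called higher in the average (83.3%, against 19.2% of all genes), with a median difference of 1.72 (0.00101 over all genes), and the same 5, Hoxa3, Hoxa5, Hoxa7, Hoxa9 and Hoxa10, lay above all 3 sorts. Hoxa11 did not pass, at -0.06 (adjusted p = 0.803), and no other gene of the cluster was analysed here. Hoxa3 and Hoxa10 had to differ, as they passed the filter on low values through HSC and L-GMP arrays alone, so the count of 5 is a description. The sequences just before the starts of the genes with the widest gaps are shown because these neighbours all lay above all 3 sorts. They are 250 bases of the RefSeq promoters of GRCm38.p6, minus strand of chromosome 6, read 5′ to 3′. Capitals mark letters of a searched motif.

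Hoxa3 chr6:52213068-52213317: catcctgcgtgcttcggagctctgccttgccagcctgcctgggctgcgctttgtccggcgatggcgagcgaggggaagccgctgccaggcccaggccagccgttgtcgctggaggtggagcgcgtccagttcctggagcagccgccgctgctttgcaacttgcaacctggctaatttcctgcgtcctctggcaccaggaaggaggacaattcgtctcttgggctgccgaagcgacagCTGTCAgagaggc

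Hoxa5 chr6:52204588-52204837: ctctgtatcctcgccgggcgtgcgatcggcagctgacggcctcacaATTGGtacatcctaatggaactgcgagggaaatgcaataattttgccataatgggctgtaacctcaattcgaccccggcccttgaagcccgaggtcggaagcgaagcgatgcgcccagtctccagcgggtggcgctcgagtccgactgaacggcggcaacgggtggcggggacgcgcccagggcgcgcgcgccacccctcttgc

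Hoxa9 chr6:52227371-52227620: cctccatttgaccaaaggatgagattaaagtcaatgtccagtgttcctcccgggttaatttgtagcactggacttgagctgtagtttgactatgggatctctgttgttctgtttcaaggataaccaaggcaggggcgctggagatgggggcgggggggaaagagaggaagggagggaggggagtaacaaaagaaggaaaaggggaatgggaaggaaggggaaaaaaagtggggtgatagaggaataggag

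Hoxa10 first start chr6:52240855-52241104: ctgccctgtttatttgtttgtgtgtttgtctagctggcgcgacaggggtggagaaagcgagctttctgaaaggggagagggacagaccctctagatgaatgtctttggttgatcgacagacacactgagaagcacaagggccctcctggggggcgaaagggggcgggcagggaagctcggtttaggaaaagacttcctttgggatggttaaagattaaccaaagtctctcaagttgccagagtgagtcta

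Hoxa10 second start chr6:52234940-52235189: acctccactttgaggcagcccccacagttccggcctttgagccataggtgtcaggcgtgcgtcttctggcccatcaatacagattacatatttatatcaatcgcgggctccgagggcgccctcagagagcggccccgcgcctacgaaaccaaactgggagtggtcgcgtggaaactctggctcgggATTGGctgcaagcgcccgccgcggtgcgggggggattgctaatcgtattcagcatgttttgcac

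Both strands were searched for 7 motifs. The letters TGATTTAT stand for HOX proteins with PBX, and TGACAG for their partner MEIS. Those of the blood factor GATA are AGATAA, and those of ETS proteins CCGGAAGT. The E-box is CACGTG, the site of C/EBP proteins TTGCNNAA, and that of the general factor NF-Y has the letters CCAAT. Of these, the E-box and the HOX letters were in 7.15% and 0.977% of all promoters in the table. The MEIS letters begin 13 bases before the start of Hoxa3, and the NF-Y letters 204 bases before that of Hoxa5 and 64 bases before the second start of Hoxa10. Among all 32851 promoters of the table, 19.2% hold the MEIS letters and 37.4% the NF-Y letters, so these matches are common ones. The windows of Hoxa9 and of the first Hoxa10 start hold none of the 7 motifs in the bases shown.

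Hoxa10 had the largest margin of all genes. In HSC its levels were 7.70, 7.38, 7.44, 7.65 and 7.66, and in L-GMP they ran from 8.44 to 9.44 with a median of 8.91. CMP arrays read 5.55, 5.59, 5.76 and 6.0, and all GMP and MEP arrays were at the floor. The self-renewing and committed arrays did not overlap, and CMP lay between the stem cells and the floor. The average difference was 2.84 ± 0.09 (SE), and the same-side adjusted p was 2.72e-06 in the fit without a filter, in which no gene had to differ. Because 7 committed arrays were at the floor, the difference is a lower bound. L-GMP exceeded HSC (HSC minus L-GMP -1.40 ± 0.13 SE, adjusted p = 1.08e-08).

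Hoxa9, a driver of stem cell and leukaemic cell growth, was high in every sort and still separated them. HSC arrays read 11.42, 11.64, 11.52, 11.40 and 11.51, and L-GMP arrays 10.94 to 12.00 with a median of 11.60. The levels of CMP were 10.23, 10.48, 10.65 and 10.25, those of GMP 9.37, 9.82, 9.73 and 9.28 and those of MEP 9.82, 9.62 and 8.63. The 2 self-renewing sorts stood at nearly 1 level, 11.50 ± 0.10 (SD, n = 5) and 11.56 ± 0.35 (SD, n = 6), and HSC minus L-GMP was -0.06 ± 0.19 SE, adjusted p = 0.827. Against the committed average the difference was 1.76 ± 0.13 (same-side adjusted p = 0.018), a 3.38-fold higher signal, and a second probe set of the gene gave 1.14 and lay on the same side. The same-side call was lost without HSC replicate 2 or CMP replicate 1, 2 or 4, with a highest adjusted p of 0.0827.

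Hoxa3 was measured above the floor almost only in the self-renewing sorts. Its HSC levels were 6.66, 6.97, 6.64, 7.01 and 6.89, and L-GMP ran from 6.79 to 8.14 with a median of 7.10. CMP read 5.41, 5.27, 5.54 and 5.65, and GMP and MEP were at the floor on all arrays. The average difference of 1.68 ± 0.12 is thus a lower bound (same-side adjusted p = 0.00297 in the fit without a filter). Its probe set has the suffix _s_, which Affymetrix gives to sets that can detect more than 1 transcript.

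Hoxa5 had a margin of 1.39 and no overlap between the sides, and just missed the same-side threshold. HSC read 9.55, 9.85, 9.86, 9.93 and 9.71, L-GMP 9.76 to 10.83 with a median of 10.26, CMP 8.30, 8.45, 8.89 and 7.91, GMP 6.99, 7.59, 7.57 and 6.20 and MEP 7.76, 7.51 and 6.09. The average difference was 2.51 ± 0.20 (adjusted p = 2.23e-09) and the same-side adjusted p 0.0562. Hoxa7 lay above all 3 sorts by only 0.06. CMP replicate 2 read 8.35, above all 5 HSC arrays, which ran from 7.54 to 8.09.

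**Figure D2:**
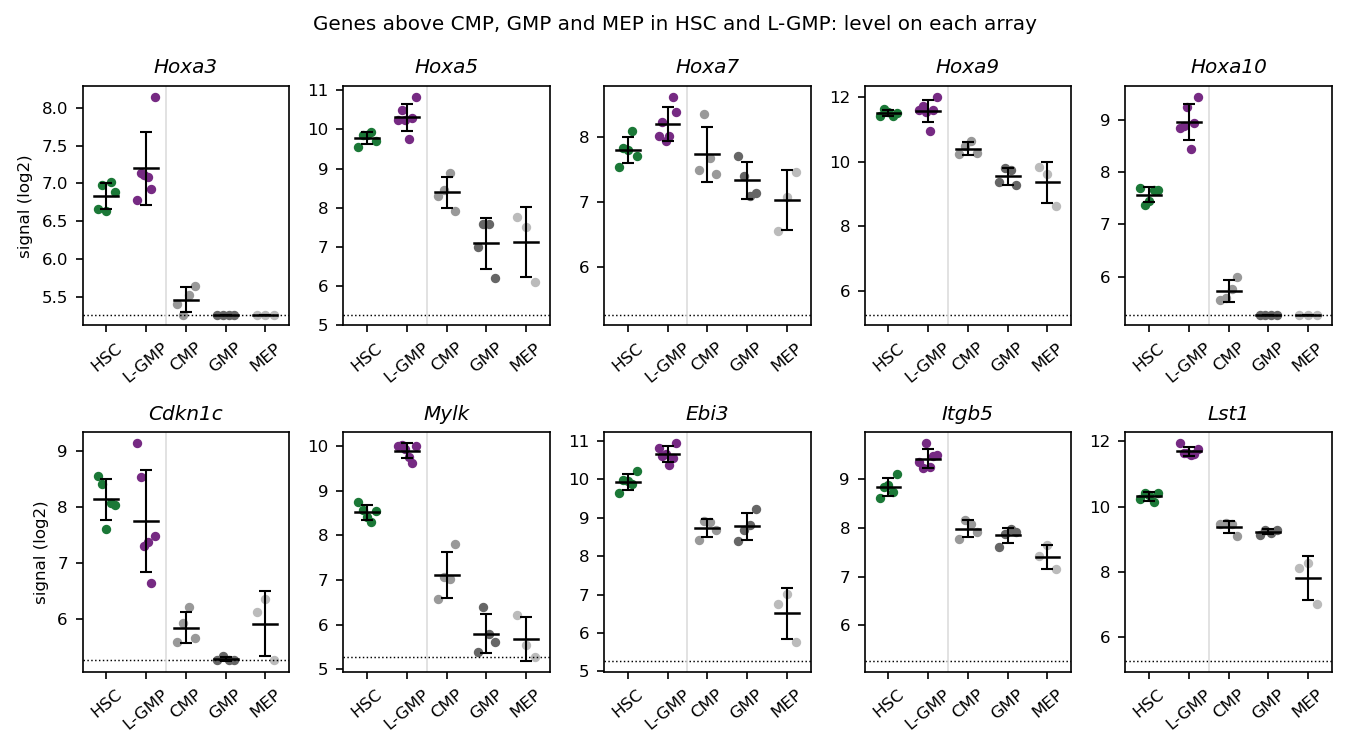
Log2 signal (y axis) on each array for 10 genes above all 3 committed sorts, by sort (x axis); points are arrays, bars the group mean, whiskers 1 SD, and the dotted line the floor of 5.27. HSC and L-GMP do not overlap the committed arrays in the panels other than Hoxa7, where CMP and GMP arrays reach the HSC range.

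Meis1, the homeobox partner of HOX proteins, was higher in the average (1.43 ± 0.12, adjusted p = 1.09e-08) but not on the side of all 3. L-GMP stood at 9.76 ± 0.17 (SD, n = 6) and CMP at 9.85 ± 0.12 (SD, n = 4), while HSC stood at 10.62 ± 0.04 (SD, n = 5). Of 4 Meis and Pbx genes tested, 2 were called higher (19.2% of all genes) and 1 lay above all 3 sorts (10.9% of all genes). Of 13 other MLL fusion targets tested, 7 were called higher (53.8% against 19.2% of all genes) and 2 lower (15.4% against 21.7%), with a median of 0.53, and 5 lay above all 3 sorts (38.5% against 10.9%). Those 5 were Mef2c, a myeloid and lymphoid transcription factor, the demethylase-family gene Jmjd1c, the RNA-binding protein gene Cpeb2, Tcf4 and Lmo2. None passed the same-side test. In Mef2c, HSC averaged 10.53 ± 0.11, L-GMP 10.77 ± 0.27 and CMP 10.42 ± 0.07, against 9.25 ± 0.35 in GMP. Jmjd1c averaged 9.87 ± 0.31 in HSC, 10.39 ± 0.18 in L-GMP and 9.68 ± 0.22 in MEP, its nearest committed sort. Cpeb2 was at 5.37 ± 0.22 in HSC, close to the floor, and its place above rests on L-GMP at 6.98 ± 0.34.

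Among 17 stem cell transcription factors, 8 were called higher (47.1% against 19.2% of all genes) and 3 lower (17.6% against 21.7%) in the average. Only 2 lay above all 3 sorts, a share of 11.8% that is near the 10.9% of all genes. These were Lmo2 and Lyl1, partners in a DNA-binding complex of blood stem cells. Lmo2 stood at 11.76 ± 0.08 in HSC and 11.42 ± 0.19 in L-GMP, against 11.28 ± 0.13 in CMP, 10.66 ± 0.12 in GMP and 11.25 ± 0.16 in MEP (average difference 0.53 ± 0.07, adjusted p = 1.86e-06). Lyl1 differed by 0.54 ± 0.07 (adjusted p = 3.33e-06). The median of the list was 0.68 for HSC alone and -0.52 for L-GMP alone, and HSC exceeded L-GMP in 12 of the 17 genes while L-GMP exceeded HSC in 2 (23.8% and 23.4% of all genes). The mean level of the list was lowest on replicate 1 in HSC (8.87), CMP (8.44) and GMP (7.62). Of 17 stem cell surface and signalling genes none lay on 1 side of all 3 sorts, with 5 called higher (29.4%) and 7 lower (41.2%).

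Mylk, myosin light chain kinase, had the largest average difference of the 24 genes. HSC levels were 8.75, 8.56, 8.41, 8.29 and 8.55, and L-GMP levels 9.62 to 10.03 with a median of 9.97. CMP read 6.57, 7.06, 7.03 and 7.80, GMP 5.38, 6.41, 5.79 and 5.61 and MEP 6.22, 5.54 and 5.27. L-GMP was highest, HSC intermediate and the committed sorts lowest, with CMP above GMP and MEP. The difference was 3.01 ± 0.14 (adjusted p = 1.73e-12, same-side adjusted p = 0.00561), and a second probe set gave 1.28 on the same side. HSC minus L-GMP was -1.38 ± 0.20 SE, adjusted p = 6.48e-06.

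Cdkn1c, an inhibitor of cyclin-dependent kinases linked to stem cell quiescence, was as high in some leukaemic arrays as in stem cells. HSC read 8.54, 8.41, 7.61, 8.07 and 8.03, and L-GMP ran from 6.64 to 9.13 with a median of 7.43. CMP read 5.59, 5.93, 6.21 and 5.66, GMP 5.27, 5.35, 5.27 and 5.27 and MEP 6.13, 6.36 and 5.27. The L-GMP arrays spread over more than the gap to the committed ones. The difference was 2.25 ± 0.23, given as a description since no committed array passed the filter, and HSC and L-GMP were not called different (0.39 ± 0.32 SE, adjusted p = 0.353). The same-side adjusted p of 0.0336 became 0.102 without a filter, and it passed in only 9 of the 22 fits that left out an array, reaching 0.252. Of 21 genes of the quiescence and FoxO list, 7 were higher (33.3% against 19.2% of all genes) and 0 lower (21.7% of all genes) in the average, and 4 lay above all 3 sorts (19.0% against 10.9%). HSC alone had 11 higher and 1 lower (17.7% and 19.7% of all genes) and a median of 0.434. L-GMP alone had 7 higher and 5 lower (22.4% and 25.1% of all genes) and a median of -0.0893.

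Itgb5, an integrin beta subunit, was called under every setting tried. HSC levels were 8.61, 8.84, 8.87, 8.75 and 9.11, L-GMP 9.24 to 9.74 with a median of 9.42, CMP 7.78, 8.17, 8.09 and 7.92, GMP 7.61, 7.89, 7.97 and 7.92 and MEP 7.42, 7.66 and 7.16. The lowest self-renewing array, at 8.61, lay above the highest committed one, at 8.17. The difference was 1.38 ± 0.08 (same-side adjusted p = 0.00354), and 3 further probe sets gave 1.45 to 2.12 on the same side.

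3 genes of immune and extracellular signalling followed. Ebi3, a subunit shared by cytokines of the interleukin family, read 9.64, 9.99, 9.97, 9.89 and 10.21 in HSC and 10.37 to 10.94 with a median of 10.64 in L-GMP, while CMP and GMP stayed at or below 9.23 and MEP read 6.74, 7.02 and 5.77 (difference 2.29, same-side adjusted p = 0.0129). Lst1, a leukocyte transcript of the MHC region, was at 10.31 ± 0.13 in HSC and 11.70 ± 0.13 in L-GMP, against 9.39 ± 0.18, 9.23 ± 0.08 and 7.81 ± 0.68 in CMP, GMP and MEP (difference 2.20, same-side adjusted p = 0.0166). Entpd1, an enzyme that breaks down extracellular ATP, was lowest at 7.09 in the self-renewing arrays and highest at 6.74 in the committed ones (difference 1.61, same-side adjusted p = 0.0524 in the fit without a filter). In all 3 genes L-GMP exceeded HSC, by 0.72, 1.38 and 0.60.

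The other genes above were closer to the committed sorts. Tinagl1, a matrix protein, ranged from 6.50 upward against a committed maximum of 6.20. The gap was 8.01 against 7.90 for the PQ-loop gene Pqlc3, 7.40 against 7.03 for Pdlim2, a PDZ and LIM domain protein, and 6.46 against 6.34 for the MARVEL domain gene Cmtm8. Trim12a, of the tripartite motif family, had 7.96 against 7.56, but a second probe set gave 0.09 (adjusted p = 0.68) and near-identical family members may share its probes. Pdlim2 and Cmtm8 passed the same-side test in 9 and 8 of the 22 fits that left out an array.

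Late neutrophil granule genes were also higher on average, mainly in L-GMP, with large differences between arrays of a group. Of 13 tested, 8 were called higher and none lower (19.2% and 21.7% of all genes), and the median was 0.83. By means 7 lay above all 3 sorts (53.8% against 10.9%), 4 of them called in the average. HSC alone had 2 higher and 1 lower (17.7% and 19.7% of all genes) and a median of 0.48. L-GMP alone had 8 higher and 1 lower (22.4% and 25.1% of all genes) and a median of 1.81. Camp, an antimicrobial granule peptide, read 9.77, 9.60, 11.68, 9.17 and 9.05 in HSC, 10.30 to 12.54 with a median of 11.63 in L-GMP, 10.33, 7.63, 9.88 and 9.09 in CMP, 10.44, 8.0, 8.85 and 10.58 in GMP and 8.76, 10.63 and 8.90 in MEP. HSC replicate 3, CMP replicate 1, GMP replicates 1 and 4 and MEP replicate 2 were the highest of their groups, and the sides overlapped. Chil3 showed the same order, with 11.66 in HSC replicate 3 and at most 10.11 in the other HSC arrays. The 4 neutrophil markers summed to 2090 to 8680 in HSC and 2420 to 11300 in L-GMP. Their sums were 916 to 4080 in CMP, 873 to 4410 in GMP and 1360 to 4800 in MEP. Of these markers, Mmp8 was at the floor in L-GMP. Ltf was lower in L-GMP (5.71, at the floor on 3 of 6 arrays) than in the other sorts (7.54 to 8.45). The part of mature neutrophil RNA in these late granule differences was not tested. Padi4, which citrullinates histones, varied less within HSC: that sort stood at 9.66 ± 0.13, L-GMP at 9.03 ± 0.71, CMP at 8.07 ± 0.39, GMP at 7.30 ± 0.13 and MEP at 5.97 ± 0.60.

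On the lower side, Endod1, an endonuclease domain gene, had the widest gap. HSC read 6.96, 7.10, 6.75, 6.49 and 6.70, and L-GMP ran from 5.27 to 6.26 with a median of 5.57. CMP read 8.26, 8.0, 7.97 and 8.63, GMP 8.18, 8.43, 7.90 and 8.29 and MEP 8.62, 8.52 and 8.16. The 3 committed sorts stood at nearly 1 level, HSC lay below them and L-GMP below HSC. The difference was -2.05 ± 0.12 (adjusted p = 1.96e-11, same-side adjusted p = 0.000701), and HSC minus L-GMP 1.14 ± 0.16 SE, adjusted p = 5.7e-06. Of its other probe sets, 1 gave -2.06 and 1 gave -0.16 (adjusted p = 0.336).

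Genes that make nucleotides were lower in both self-renewing sorts. Adk, adenosine kinase, which returns adenosine to the nucleotide pool, read 9.92, 9.57, 9.53, 9.44 and 9.70 in HSC and 9.41 to 9.57 with a median of 9.47 in L-GMP. Its committed levels were 10.56, 10.26, 10.12 and 10.44 in CMP, 10.36, 10.23, 10.22 and 10.14 in GMP and 11.03, 10.95 and 11.15 in MEP. No self-renewing array reached a committed one, and MEP was highest. The difference was -0.99 ± 0.06 (same-side adjusted p = 0.00625). Cad, the enzyme of the first steps of pyrimidine synthesis, was between 8.10 and 8.72 in HSC and L-GMP and between 9.06 and 9.72 in the committed sorts (difference -0.85 ± 0.07, same-side adjusted p = 0.0204). Ppat, the first enzyme of purine synthesis, had no overlap either (7.73 at most against 7.75 at least, difference -0.82 ± 0.08), with a same-side adjusted p of 0.193. Of 16 purine and pyrimidine enzymes tested, 12 were lower and 2 higher in the average (75.0% lower against 21.7% of all genes), and 11 lay below all 3 sorts (68.8% against 14.8%). This list was drawn up after the values of Cad and Adk were seen.

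Mitochondrial genes make up most of the other same-side calls below. Fh1, fumarate hydratase of the citrate cycle, stood at 10.42 ± 0.08 (SD, n = 5) in HSC and 10.43 ± 0.09 (SD, n = 6) in L-GMP, and at 10.86 ± 0.04, 10.91 ± 0.07 and 10.84 ± 0.11 in CMP, GMP and MEP. Its difference of -0.44 ± 0.05 is small, a 1.36-fold lower signal, yet no array overlapped (same-side adjusted p = 0.0204). Sfxn1, the mitochondrial serine carrier, read at most 10.44 in the self-renewing sorts and at least 10.71 in the committed ones (difference -0.52). The same comparison gave 10.80 and 11.04 for Atpif1, an inhibitor of ATP synthase (difference -0.80). For Mrpl16, of the mitochondrial ribosome, it gave 9.02 and 9.10 (difference -0.68). The 2 sides met at 9.99 for Timm8a1, an import chaperone (difference -0.70), whose second probe set did not lie below all 3 sorts. Slc24a3, a sodium, potassium and calcium exchanger, was at the floor on 6 of 11 self-renewing arrays and at least 6.13 in the committed ones. Ppp1r14b, a phosphatase inhibitor, differed by -0.78 (same-side adjusted p = 0.0244). Mrpl16 and Timm8a1 passed in only 7 and 9 of the 22 fits that left out an array.

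Most measured members of the mitochondrial groups were lower too. Of 57 oxidative phosphorylation genes, 43 were called lower and none higher (75.4% against 21.7% of all genes), 30 lay below all 3 sorts (52.6% against 14.8%), and the median was -0.24. Medians were -0.32 for HSC alone and -0.19 for L-GMP alone. L-GMP exceeded HSC in 20 of the 57 while HSC exceeded L-GMP in 6 (23.4% and 23.8% of all genes). Sdhb, a subunit of succinate dehydrogenase, stood at 11.12 ± 0.06 in HSC and 11.01 ± 0.17 in L-GMP, against 11.48 ± 0.15, 11.45 ± 0.03 and 11.48 ± 0.24 in CMP, GMP and MEP. Cyc1, a cytochrome of the respiratory chain, differed by -0.58 ± 0.08 (adjusted p = 8.24e-06), and neither gene's arrays overlapped between the sides. Of 74 mitochondrial ribosomal proteins, 57 were lower, 1 higher and 44 below all 3 sorts (median -0.29). Of 23 citrate cycle genes, 18 were lower and 12 below all 3 (median -0.30), and of 23 genes of mitochondrial import, 17 were lower and 17 below all 3 (median -0.33). These last 3 lists were drawn up after values were seen.

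The list of MYC targets and ribosome biogenesis, the nucleolar work that MYC drives, had the highest share of lower calls among the gene lists. Of 32 genes tested, 30 were lower and none higher (93.8% against 21.7% of all genes), 24 lay below all 3 sorts (75.0% against 14.8%), and the median was -0.47. The mean level of the list was 9.11 to 9.29 on the HSC arrays and 8.93 to 9.10 on the L-GMP arrays. It was 9.45 to 9.52 on CMP, 9.51 to 9.67 on GMP and 9.67 to 9.90 on MEP arrays, so all 11 self-renewing arrays lay below all 11 committed ones. HSC exceeded L-GMP in 15 of the 32 genes and L-GMP exceeded HSC in 3 (23.8% and 23.4% of all genes). Srm, spermidine synthase, read 9.75, 9.67, 9.60, 9.84 and 9.57 in HSC, 9.80 to 10.17 with a median of 9.89 in L-GMP, 10.46, 10.42, 10.43 and 10.76 in CMP, 10.75, 10.91, 11.08 and 11.15 in GMP and 10.83, 10.86 and 11.54 in MEP. No arrays overlapped, the difference was -1.05 ± 0.08 (adjusted p = 3.6e-09), and the same-side adjusted p was 0.0509, just above the threshold. Nop2, an rRNA methyltransferase, differed by -0.68 ± 0.09, the nucleolar protein gene Nolc1 by -0.68 ± 0.12 and Noc4l by -0.79 ± 0.09. Myc itself stood at 9.69 ± 0.19 in HSC, 8.90 ± 0.10 in L-GMP, 10.10 ± 0.15 in CMP, 9.87 ± 0.15 in GMP and 10.28 ± 0.13 in MEP. Its difference was -0.79 ± 0.07 (adjusted p = 7.36e-09), and none of the 24 same-side calls belonged to this list. Of 41 cytoplasmic ribosomal proteins, 11 were called lower (26.8% against 21.7% of all genes) and 1 higher. By group means, 21 of the 41 lay below all 3 sorts (51.2% against 14.8%), with a small median of -0.09. The count called lower changed from 1 to 22 between settings.

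**Figure D3:**
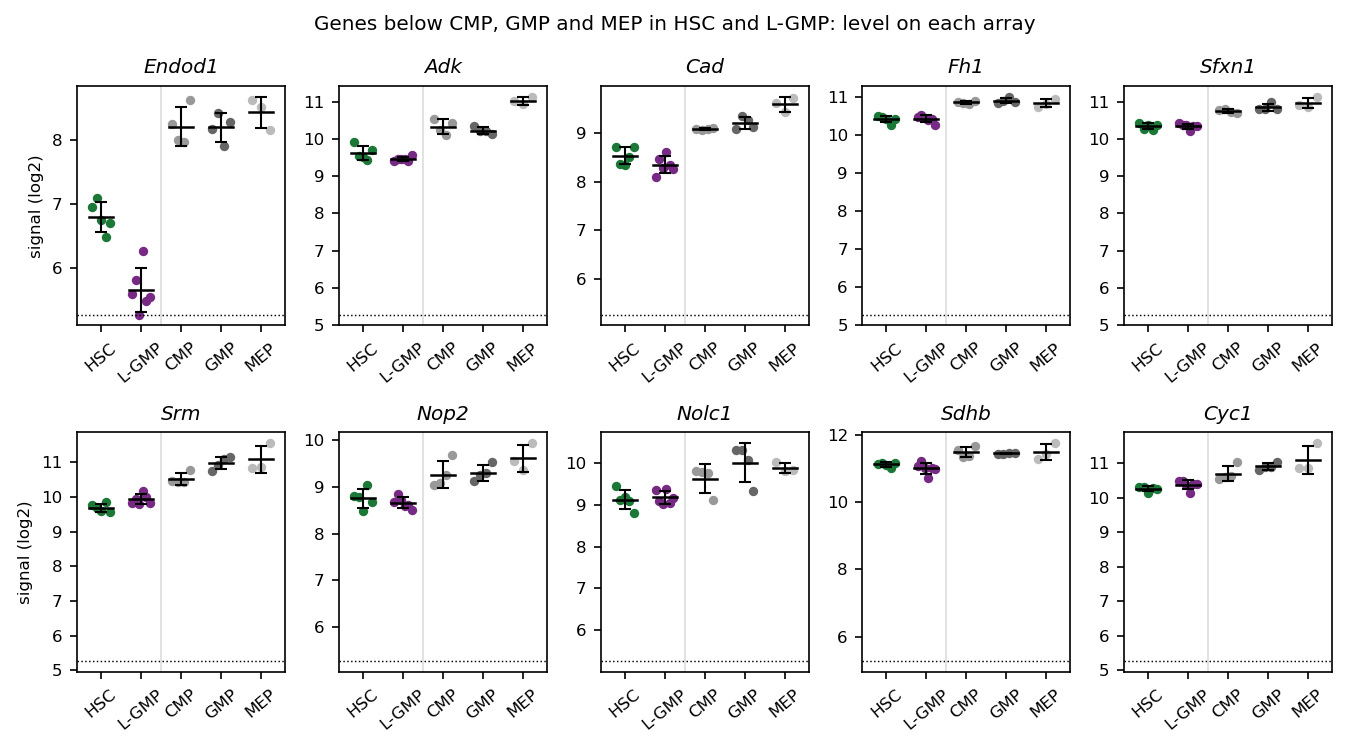
Log2 signal (y axis) on each array for 10 genes below all 3 committed sorts, by sort (x axis); points are arrays, bars the group mean, whiskers 1 SD, and the dotted line the floor of 5.27. In Endod1 the L-GMP arrays lie below HSC, while Fh1 and Sfxn1 have HSC and L-GMP at 1 level under all 3 committed sorts.

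The promoters of Nop2 and Cdk4, both lower genes, are shown because they hold the E-box CACGTG, the letters bound by MYC with MAX. The 250 bases before the starts of Adk, Cad, Nolc1, Noc4l and Ncl were also looked at and hold no E-box. Of 1228 RefSeq promoters matched to 1028 of the 1243 lower genes, 13.8% hold it between 250 bases before and 50 after the start, against 883 of the 8790 promoters of all tested genes and 8.09% of the 1001 promoters of the higher genes. The ETS letters CCGGAAGT are in 13.8% of the lower, 7.82% of all tested and 5.89% of the higher promoters. In the sorted arrays the lower genes were also brighter, with a median level of 8.68 against 7.87 above and 8.12 over all genes. The part of signal level in these promoter shares was not tested. Of 45 oxidative phosphorylation genes with a promoter in the table, 5 hold the E-box. Of 25 such genes on the list of MYC targets and ribosome biogenesis, 7 hold it. Members of that list were named partly as MYC targets. The letters are a description of these windows and show neither binding nor control. Nop2 was chosen from that list, and Cdk4, a cell cycle kinase gene that stood at 9.43 ± 0.14 in HSC, 9.02 ± 0.20 in L-GMP and 9.66 ± 0.15 in GMP, after its 4 matches were seen. Both are on the plus strand, and capitals mark the E-box.

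Nop2 chr6:125131633-125131882: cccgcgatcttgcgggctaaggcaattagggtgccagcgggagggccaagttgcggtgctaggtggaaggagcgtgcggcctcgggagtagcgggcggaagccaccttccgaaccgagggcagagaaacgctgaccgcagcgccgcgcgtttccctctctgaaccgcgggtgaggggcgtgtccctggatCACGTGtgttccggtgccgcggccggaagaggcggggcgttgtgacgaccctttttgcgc

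Cdk4 chr10:127063285-127063534: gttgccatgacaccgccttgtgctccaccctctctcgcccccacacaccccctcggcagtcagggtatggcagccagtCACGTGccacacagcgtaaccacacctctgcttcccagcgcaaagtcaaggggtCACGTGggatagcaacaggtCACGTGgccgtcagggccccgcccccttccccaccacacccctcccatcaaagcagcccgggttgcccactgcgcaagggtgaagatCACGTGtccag

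In Nop2 the E-box begins 60 bases before the start, and in Cdk4 172, 118, 98 and 11 bases before it. Cdk4 differed in the average by -0.46 ± 0.07 (adjusted p = 3.76e-05) and lay below all 3 sorts by 0.23. The genes called by the same-side test were found in the promoter table in 20 of 24 cases.

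Cell cycle genes divided by phase. Of 30 S phase genes, 13 were lower (43.3% against 21.7% of all genes) and none higher, 10 lay below all 3 sorts (33.3% against 14.8%) and the median was -0.20. HSC alone had 18 lower (19.7% of all genes) and a median of -0.29. L-GMP alone had 8 of 30 lower (25.1% of all genes) and a median of -0.10. L-GMP exceeded HSC in 11 of the 30 while HSC exceeded L-GMP in 2 (23.4% and 23.8% of all genes). Mcm2, of the replicative helicase, differed by -0.25 ± 0.05 and Rfc4, of the clamp loader, by -0.50 ± 0.10. Of 30 G2 and M phase genes, 1 was higher and 1 lower in the average, while HSC and L-GMP lay on opposite sides. HSC alone had 18 lower (19.7% of all genes) and a median of -0.42, L-GMP alone had 9 higher (22.4% of all genes) and a median of 0.27, and in 26 of 30 L-GMP exceeded HSC (23.4% of all genes). Aurka, a kinase of the spindle, stood at 7.79 ± 0.34 in HSC and 9.22 ± 0.31 in L-GMP (HSC minus L-GMP -1.43 ± 0.18 SE, adjusted p = 1.08e-06). Kif23, a kinesin of cell division, was the only member above all 3 sorts, by 0.04.

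In 3 further groups HSC and L-GMP lay on opposite sides of the committed average. Of 17 primary granule proteins, 4 were higher (23.5%) and 5 lower (29.4%) in the average and none lay on 1 side of all 3 sorts. Their median was -1.17 in HSC (13 lower, against 19.7% of all genes) and 0.93 in L-GMP (12 higher, against 22.4%). L-GMP exceeded HSC in 15 of the 17 (23.4% of all genes). Elane, neutrophil elastase, stood at 7.07 ± 1.64 in HSC, 12.36 ± 0.38 in L-GMP and 12.60 ± 0.24 in GMP, and its average difference was 0.07 ± 0.35 (adjusted p = 0.898). Of 27 interferon-stimulated genes, 20 were higher in HSC alone and 19 lower in L-GMP alone, with medians of 0.72 and -0.75 (17.7% and 25.1% of all genes), and 2 lay above all 3 sorts (7.41% against 10.9%). The mean level of that list was 9.17 to 9.27 on HSC arrays, 7.10 to 7.40 on L-GMP arrays and 7.76 to 8.63 on CMP, GMP and MEP arrays. Ifitm3, an antiviral membrane protein, stood at 12.13 ± 0.08 in HSC and 7.06 ± 0.38 in L-GMP. Of 32 immediate early and stress genes, 6 lay below all 3 sorts (18.8% against 14.8% of all genes). Among them was the chaperone gene Hspa1a (-2.43 ± 0.45), whose near-identical copy Hspa1b may share its probes. HSC exceeded L-GMP in 26 of the 32 (23.8% of all genes). The mean of this list was 8.37 on HSC replicate 1 against 9.66 to 10.7 on the other HSC arrays. It was 7.41 on CMP replicate 1 against 9.52 to 9.67, and 7.39 on GMP replicate 1 against 8.74 to 9.12. Without these 3 arrays, an alternative chosen after seeing the data, the same-side test called 7 genes, 6 of them among the 24: Adk, Endod1, Hoxa10, Hoxa3, Itgb5 and Tinagl1.

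**Figure D4:**
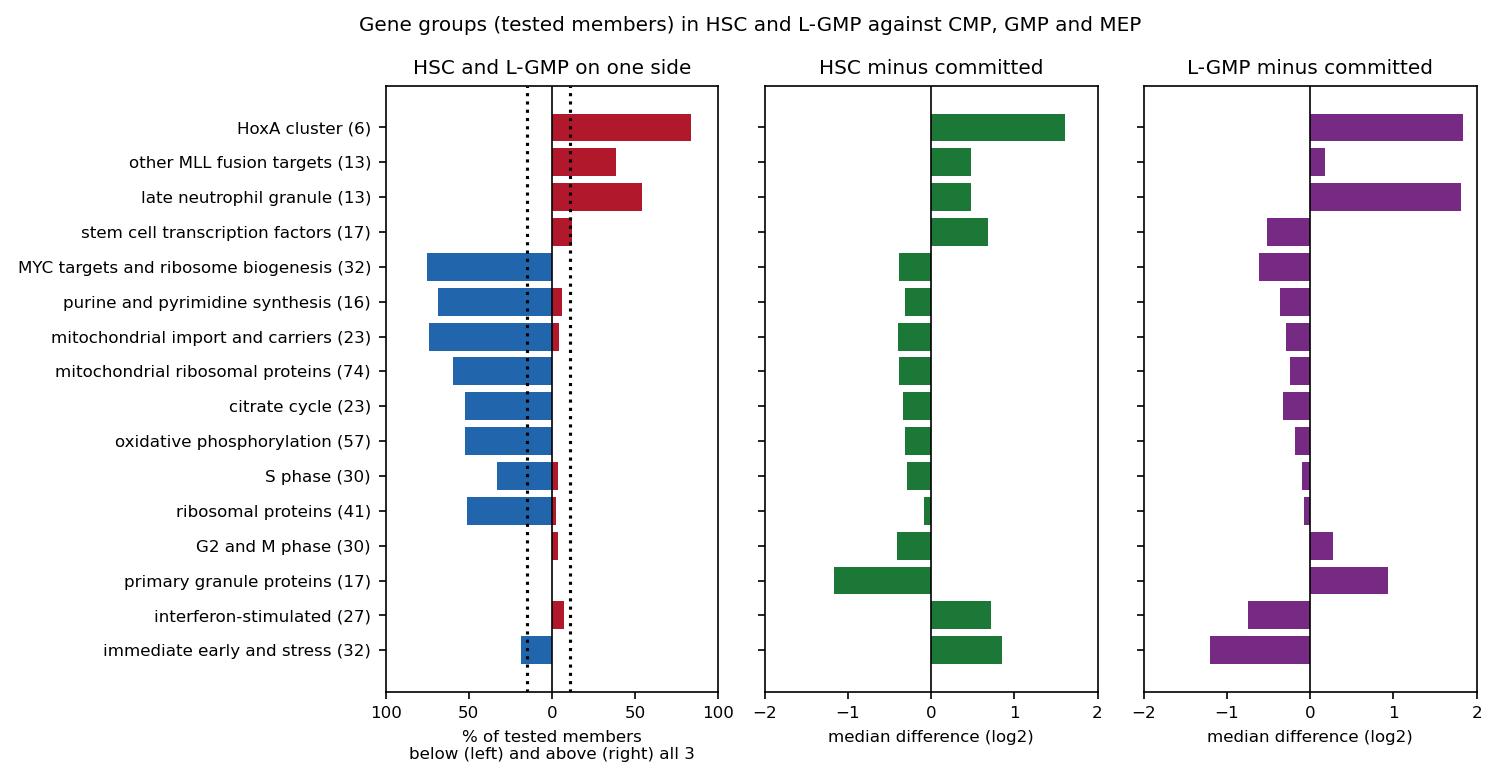
Gene groups by number of tested members (in brackets). The left panel gives the percent of members with HSC and L-GMP below (blue) or above (red) all 3 committed sorts, with dotted lines at 14.8% and 10.9% of all genes; the other panels give the median log2 difference of HSC and of L-GMP from the committed average, which use the same committed arrays. Bars for stem cell transcription factors and for G2 and M phase, primary granule, interferon-stimulated and immediate early genes point opposite ways in HSC and L-GMP.

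Other large average differences did not lie on 1 side of all 3 sorts. Hpgd, which degrades prostaglandins, was at the floor on all HSC, CMP, GMP and MEP arrays and at 11.72 ± 0.09 (SD, n = 6) in L-GMP, at least 87.3-fold higher than in the committed sorts. Mycn, a MYC family gene, was likewise at least 61.1-fold higher in L-GMP, Igf2bp3, an RNA-binding protein, 33.5-fold and Penk, a neuropeptide precursor, 32.3-fold. Their average contrasts of 3.22, 2.97, 2.53 and 2.51 come from L-GMP alone. Another kept probe set gave a smaller average contrast for Hpgd, 1.12, and for Mycn, 0.32. The folds of Hpgd and Mycn therefore hold for the probe set used and not for every probe set of the gene. On the lower side, F2r, a thrombin receptor, was at 11.01 ± 0.10 in HSC but no L-GMP array rose above the floor, and Apoe stood at 8.36 ± 0.38 in HSC, 7.85 ± 0.28 in GMP and at the floor in L-GMP. Car1 and Aqp1, erythroid genes, were low in HSC, L-GMP and GMP alike, at 5.79 ± 0.34, 5.96 ± 0.34 and 5.90 ± 0.48 for Car1, and high in MEP at 12.27 ± 0.28. Aqp1 differed by -2.73 and Car1 by -3.10 on average.

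The genes that define the sorts were not on 1 side either. Cd34 was 9.78 ± 0.19 in HSC, 8.08 ± 0.41 in L-GMP, 9.57 ± 0.26 in CMP, 8.94 ± 0.14 in GMP and 6.28 ± 0.84 in MEP. The average differences were 0.67 for Cd34, 0.55 for Fcgr2b, 0.71 for Fcgr3 and -0.24 for Kit. Without MEP among the committed sorts the first 3 turned to -0.32, -0.26 and -0.03. Kit, the stem cell factor receptor, was lower in L-GMP than in HSC (HSC minus L-GMP 1.46 ± 0.12 SE, adjusted p = 1.38e-09) although both were sorted as Kit-positive.

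At the edge of the definition, Ezh1 and Mag lay just inside the genes above, with margins of 0.00028 and 0.00036, and Yy1 and Hs3st3b1 just inside those below, with 0.00021 and 0.00044. Mag was at the floor on 4 of 5 HSC arrays. Apoc2 and Cd300lf, at the floor in HSC and all committed sorts, lay just outside with a margin of 0.

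The transduced experiment supplied other samples for the same genes. There GMP expressed GFP (3 arrays) or MLL-AF9 (3 arrays), with RNA amplified on another day, so only changes within it were used. By limma 2 of 7235 genes were called (0.0276%), neither of them among the 2159 genes, 1 higher and 1 lower (0.0138% each); 739 passed 0.05 before adjustment. Blocking on the replicate pair gave 126 calls (1.74%), 15 higher (0.207%) and 111 lower (1.53%). Of the genes above all 3 committed sorts, 705 were tested there, and 33.2% of them were higher in MLL-AF9 than in GFP, against 53.4% of all 6865 genes tested in both experiments. Of the genes below, 1142 were tested and 81.3% were higher in MLL-AF9. The medians were -0.10 above, 0.14 below and 0.02 over all genes. Genes higher in the self-renewing sorts were thus more often lower with MLL-AF9, and genes lower there more often higher. Over the 12 other settings the share ran from 33.0% to 36.5% above and from 67.3% to 85.6% below, the lowest without pair 1. The share of all genes ran from 48.8% to 55.2%, and the medians from -0.117 to -0.0699 above and from 0.0628 to 0.197 below. Without GFP replicate 1 the median below was 0.0718 and that of all genes 0.00154, and without pair 1 they were 0.0628 and -0.00485. The genes below were also the brighter ones, with a median level of 10.8 in that experiment against 9.72 above and 10.1 over all, and the part of signal level in these shares was not tested.

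**Figure D5:**
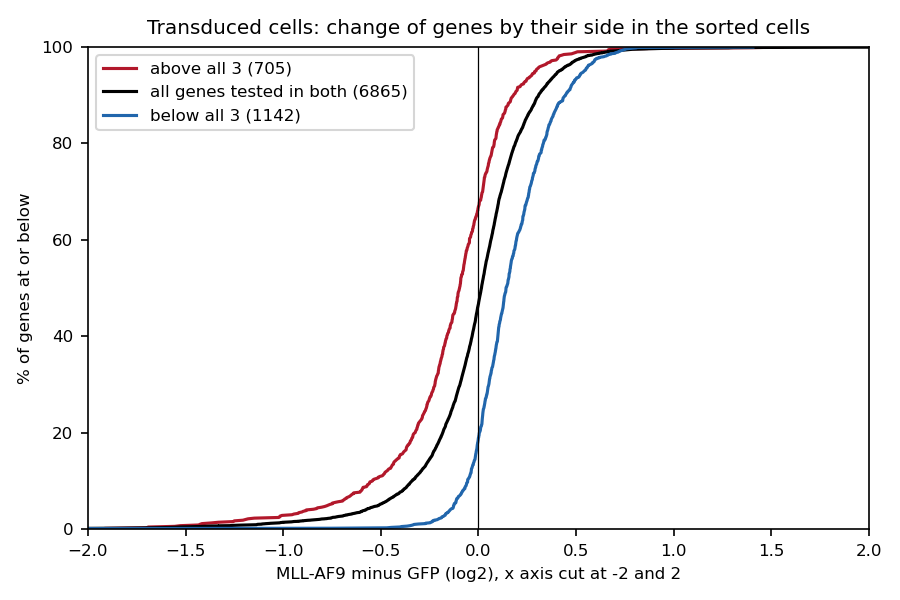
Percent of genes (y axis) at or below each log2 change of MLL-AF9 against GFP (x axis, cut at -2 and 2) for genes above (red) and below (blue) all 3 committed sorts and for all genes tested in both experiments (black). The red curve lies left and the blue curve right of the black one, with medians of -0.10, 0.14 and 0.02.

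Hoxa9 and Hoxa7 were higher with MLL-AF9, unlike most genes above. Hoxa9 read 9.47, 10.87 and 10.84 in GFP arrays and 11.73, 12.13 and 12.01 in MLL-AF9 arrays, a change of 1.56 (adjusted p = 0.0362 with the replicate pair as a block, 0.382 without). Hoxa7 read 7.93, 8.09 and 8.30 and 9.50, 9.78 and 9.26, a change of 1.40 (adjusted p = 0.0179 with the block, 0.135 without). In both, every MLL-AF9 array exceeded every GFP array. Hoxa3 did not pass at -0.09, and Hoxa5 and Hoxa10 were not tested there. With the block, 3 genes rose (Hoxa7, Hoxa9 and Hoxc5) and 17 fell among the 705 genes above, and 0 rose and 1 fell among the 1142 below. The latter was Ahnak, a large scaffold protein, at -2.39 (adjusted p = 0.00758). In the sorted arrays, Ahnak probe sets with average differences of -0.07 and 0.17 did not lie below all 3 sorts. The others with the largest falls came from genes above: Hacd4 at -1.91, the integrin Itgb7 at -1.69, Rnase4 at -1.69, the iron-siderophore binder Lcn2 at -1.53, Naaa at -1.43, the interleukin receptor antagonist Il1rn at -1.43 and Myadm at -1.37. GFP replicate 1 was the highest array for all 8 of these. Hacd4 and Myadm were higher on average in the self-renewing sorts, with average differences of 1.94 and 1.02 and same-side adjusted p-values of 0.43 and 0.366. The blocked count of 126 moved with single pairs, to 63, 8 and 233 without pairs 1, 2 and 3. Of the 24 same-side calls 18 were tested there: 2 of the 9 above and 7 of the 9 below were higher in MLL-AF9. On the list of MYC targets and ribosome biogenesis the median change was 0.40 over 32 genes, and 0 passed the limma test with or without the block. GFP replicate 1 was the lowest GFP array for all 24 members of that list below all 3 committed sorts. The median change of the list without that array was not calculated.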

How the data were processed

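Sorted marrow cells gave RNA that was hybridised to Affymetrix MOE430A arrays. The deposited values are linear signal intensities made by the authors with MAS5, per the submitters' processing notes; the version is not given in the sources used here. The series describes its transduced and sorted experiments as not comparable, so each was fitted alone. The 64 control probe sets were dropped. Arrays were scaled to 1 trimmed mean (2% cut at each end), floored at the 25th percentile (38.7 in the sorted arrays) and taken to log2, so differences of dim genes are understated. Probe sets above the experiment's median (108) on at least 3 arrays were kept. Of 22690 probe sets, 20393 had 1 gene symbol, 691 several and 1555 none; 20372 matched RefSeq. The kept probe set with the highest mean stood for its gene. Of 2578 genes with several probe sets, 27 had opposite calls. Of 701 same-side genes with several kept probe sets, 292 had all of them on that side. In 21 a probe set lay on the opposite side. The number of arrays limits the precision.

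Tests were limma 3.58.1 in R 4.3.3 with Benjamini-Hochberg adjustment over all genes at 0.05. On simulated data the same-side test recovered 86% of genes shifted by 1 and 95% of those shifted by 2 in both sorts, and 0% of those shifted in L-GMP alone. There the committed sorts shared 1 mean per gene and no floor was applied, unlike in these data, so the rates do not carry over to them. In the L-GMP set HSC was drawn equal to the committed sorts, so its low rate was built in. Members and lists were chosen with earlier results of these data known. Genes named in full were the same-side calls with the largest margins, the 4 higher and 4 lower largest average calls off the side, the sort markers, the edge genes and the largest blocked MLL-AF9 calls; the others are list examples chosen after their values were seen. Alternatives changed scaling, floor, filter, probe set rule, weights, variance model, RNA length covariate, committed groups and arrays. Replicate numbers paired the transduced samples, since same-numbered samples deviated together in 3 of 3 pairs (r from 0.379 to 0.596). Promoters are RefSeq GRCm38.p6.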

Additional observations from a re-analysis of the deposited data

Results flagged for a closer look

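In 51 named genes, 15 of 179 groups held an array flagged as apart from the others of its group. The rate that chance would give was not tested. Where the other arrays stood at the floor, a small rise was enough. Examples are Mag in HSC (5.28 against 5.27) and Cdkn1c in GMP (5.35 against 5.27). The array stood at 5.35 for Cdkn1c in GMP replicate 2, 8.14 for Hoxa3 in L-GMP replicate 6, 9.12 for Lst1 in CMP replicate 4 and 8.49 for Trim12a in L-GMP replicate 1. For Slc24a3 it stood at 5.64 in HSC replicate 4 and 6.06 in L-GMP replicate 6. L-GMP replicate 4 stood apart in the mitochondrial genes Timm8a1 (9.99) and Sfxn1 (10.2), and GMP replicate 3 in Sfxn1 (11). Among erythroid genes, Car1 was at 6.37 in HSC replicate 1 and 5.27 in L-GMP replicate 3, and Aqp1 at 5.51 in L-GMP replicate 2 and 5.61 in GMP replicate 1. HSC replicate 4 stood apart for Ezh1 (7.78) and Mag (5.28).

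HSC and L-GMP differed from each other, by limma on HSC minus L-GMP, in 26 named genes. Among same-side genes above, the difference was -1.4 for Hoxa10, -1.38 for Mylk, -1.38 for Lst1, -0.722 for Ebi3, -0.598 for Entpd1 and -0.59 for Itgb5, all higher in L-GMP. It was 0.319 for Tinagl1 and 0.511 for Cmtm8, higher in HSC. Below, it was 1.14 for Endod1 and 0.358 for Ppp1r14b. Genes called on average only gave -6.45 for Hpgd, -5.93 for Mycn, -5.07 for Igf2bp3, -5.01 for Penk, 3.09 for Apoe and 5.74 for F2r. Genes of the sort markers gave 1.7 for Cd34, -3.34 for Fcgr2b, -4.38 for Fcgr3 and 1.46 for Kit. At the edge of the definition the values were 0.654 for Ezh1, -1.92 for Mag, -3.56 for Apoc2 and -2.37 for Cd300lf. Hacd4 (0.867) and Myadm (0.476), which fell with MLL-AF9, were higher in HSC.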

How the results depend on the processing

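The count of genes passing the same-side test moved most. It was 24, and 13 without scaling, 54 with array weights, 13 with the replicate block and 11 to 29 with an array left out. Chosen after seeing the data, it was 143 when each of the 6 pairs passed on its own and 7 without replicate 1 of HSC, CMP and GMP. Ribosomal proteins called lower, 11, became 2 without scaling, 2 with quantile normalization, 17 with the floor at the 50th percentile, 21 without a filter, 22 with trend and robust variances, 6 with array weights, 3 with the replicate block, 1 against CMP and GMP, 6 without the 3 replicate 1 arrays and 4 to 14 with an array left out. Against CMP and GMP alone Cd34 turned to -0.3246, Fcgr2b to -0.258 and Fcgr3 to -0.02707. MLL-AF9 calls, 2, became 126 with the replicate block (63, 8 and 233 without pairs 1, 2 and 3), 1 without a filter and 0 with any array left out. The causes were not tested.

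In the sorted arrays same-numbered samples correlated over 0.1 in 18 of 37 pairs (-0.493 to 0.528), so the numbers were not taken to pair the samples, although replicate 1 stood low in immediate early genes in HSC, CMP and GMP. Of the 24 same-side genes, 11 were also called with that block. With an array left out, average calls ran from 3136 to 3494, HSC calls from 2771 to 3267, L-GMP calls from 3739 to 4031 and same-side genes by means from 1949 to 2280. HoxA genes called higher stayed at 5. Lower calls ran from 28 to 30 for MYC targets and ribosome biogenesis and from 40 to 43 for oxidative phosphorylation. Of the average differences of named genes under alternatives, 1313 kept direction and call, 10 lost the call and 3 reversed. The same-side call was lost in 111 of 525 fits of the 24 genes with an array left out. Values at the floor have no order, which limits dim genes.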

Other observations

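Over all genes, 19.2% were called higher and 21.7% lower in the average contrast, and 10.9% lay above and 14.8% below all 3 committed sorts, and the counts of each list stand beside these shares. Lymphoid priming genes were higher on average in 8 of 12 tested (66.7%) and lower in 1 (median 0.88), with 2 above all 3 committed sorts and 1 below. The lymphoid median was 1.2 for HSC alone and -0.032 for L-GMP alone. Erythroid genes were lower in 15 of 23 (65.2%) and higher in 2 (median -1.04), with 4 below all 3 sorts (17.4%) and 2 above, and haem synthesis genes lower in 4 and higher in 3 of 10, with 3 below. The mean level of the erythroid list was 9.15 to 9.43 on MEP and 7.27 to 8.09 on CMP arrays. It was 6.61 to 6.85 on GMP, 6.87 to 6.91 on HSC and 6.68 to 6.85 on L-GMP arrays. Megakaryocyte and platelet genes were lower in 8 of 11 (72.7%) and higher in 2, with 1 above, and their median was -0.109 for HSC alone and -0.652 for L-GMP alone. Monocyte and macrophage genes were higher in 8 of 21 (38.1%) and lower in 3 (14.3%), with none on 1 side, and mast, basophil and eosinophil genes higher in 2 of 7 and lower in 4. The medians of these lists were -0.36 and -0.826 for HSC alone and 0.49 and 0.763 for L-GMP alone.

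Serine and one-carbon genes were lower in 7 of 12 (58.3%) and higher in 1, with 4 below all 3 sorts and 2 above. Notch pathway genes were higher in 6 of 16 (37.5%) and lower in 2 (12.5%), with 3 above and 1 below. Transforming growth factor and BMP genes were higher in 5 of 19 (26.3%) and lower in 2 (10.5%), beta-catenin pathway genes higher in 2 of 17 (11.8%) and lower in 5 (29.4%), and glycolysis genes higher in 5 of 16 (31.2%) and lower in 2 (12.5%). Polycomb genes were higher in 2 of 18 and lower in 4 (11.1% and 22.2%, the latter near all genes), and DNA methylation genes higher in 1 of 8 and lower in 4 (50.0%). Markers of T and NK cells were higher in 2 of 6 and lower in 2, of B and plasma cells higher in 1 of 6, of dendritic cells higher in 3 of 8 and lower in 2, and of stroma and endothelium higher in 1 of 7. The dendritic cell median was 0.844 for HSC alone and -0.588 for L-GMP alone.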
